A study of Mus musculus with 16 samples.

Results

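Adherens junction genes were taken as the 72 protein-coding genes that the deposited table annotates to the adherens junction pathway of KEGG (mmu04520), of 22005 protein-coding rows and 57010 rows in all. The genes were chosen by this annotation, and the pathway was selected on these same libraries, because its genes were over-represented among those with more mRNA in Cd+Se than in Cd mice. Values of Cd+Se against Cd are therefore given as a description without a test. Liver poly(A) RNA was sequenced from 16 male wild-type C57BL/6J mice, 4 in each of 4 groups. The methods of the study give an age of 8 to 12 weeks, taken here as the age before 3 months of diet, so the mice were older when the liver was collected. Cd mice received CdCl2 intraperitoneally at 1.25 mg/kg each day for 7 days, and Se mice ate selenomethionine (SeMet) at 2 ppm for 3 months. Cd+Se mice had both, with Cd during the last 7 days, and control mice had neither added Se nor Cd, with any vehicle not given in the sources used here. Levels are TPM (transcripts per a fixed total of transcripts), which are scaled to a gene's length and to the same total in each library, so sequencing depth is unknown and precision rests on the 4 mice of a group. Of the 72 genes, 57 reached a mean of 1 TPM over the 16 libraries and were compared with limma on log2(TPM + 1), in 1 model with the other genes that reached it, 11766 in all. Fold changes below are on that log2 scale with their standard errors (SE), where the change of weakly expressed genes comes out too small, and p-values were adjusted over all 11766 genes.

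Adherens junctions hold neighbouring epithelial cells together. The outer parts of classical cadherins bind each other between cells, their tails bind beta-catenin and delta-catenin, and alpha-catenin, vinculin and alpha-actinin tie the complex to actin filaments. Nectins form a parallel set of contacts through afadin, and kinases, phosphatases and small GTPases tune the strength of the junction. In the liver these junctions lie beside the tight junctions that seal the bile canaliculi between hepatocytes, and beta-catenin outside the junction works with TCF factors as the end of the Wnt pathway.

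The libraries were not alike in overall level. The median gene stood at 3.11 to 3.20 on the log2(TPM + 1) scale in control mice, 2.68 to 3.12 in Cd mice, 3.11 to 3.18 in Cd+Se mice and 3.06 to 3.36 in Se mice, with Cd mouse 5 and then Cd mouse 6 lowest and Se mouse 40 highest. Mitochondrially encoded RNAs of any biotype made up 22.2% of TPM in Cd mouse 5 and 12.8% to 18.0% in the other libraries. Because of this, the main counts are also given without Cd mice 5 and 6, which was decided with the values in view. The labelled tissue had its defining markers, since all 7 hepatocyte markers looked at were above 1 TPM. Summed markers fell between control and Cd mice from 114 ± 11.1 to 45.7 ± 10.2 TPM for Kupffer cells (6 genes, SD, n = 4) and from 72.8 ± 5.76 to 52.3 ± 8.91 TPM for sinusoidal endothelium (7 genes), and stood at 12.5 ± 5.12 and 35.8 ± 3.64 TPM for neutrophils (5 genes). Each of these differences had an exact two-sided permutation p of 0.0286, the smallest that 4 mice against 4 can give. The neutrophil sum was mostly S100a8 and S100a9, while Ly6g and Cxcr2 were under 1 TPM in the mean. Hepatocyte markers summed to 76399 ± 8799 TPM in control and 57240 ± 13384 TPM in Cd mice (exact permutation p = 0.0857). In bulk RNA, fewer cells of a type and less RNA per cell cannot be told apart.

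Most adherens junction genes had less mRNA in Cd mice than in control mice. Among the 57 genes tested, 28 fell and 1 rose at an adjusted p under 0.05, against a background of 24.9% of all tested genes that fell and 5.82% that rose. The median log2 fold change was -0.40 for the junction genes and -0.17 for all genes tested, and 51 of the 57 had a negative value, beside 66.7% of all genes. The 4 Cd mice lay wholly below the 4 control mice for 32 junction genes and wholly above them for 3, where the background was 27.8% and 6.44% of all genes. Among the largest falls were those of Vcl (log2 fold change -1.25 ± 0.16), Tgfbr2 (-1.01 ± 0.24), Met (-0.95 ± 0.14), Ptprf (-0.91 ± 0.19) and Ctnnd1 (-0.91 ± 0.14), and the gene that rose was Snai2 (0.76 ± 0.25). This comparison shares its 4 Cd mice with the one that led to the choice of the pathway, so the direction of these genes is not independent evidence.

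The counts moved with the scaling of the libraries. Of all calls in Cd against control, 81.1% were falls with TPM as deposited, 57.1% after quantile normalization, 44.4% with each library's median set to the same level (median centring) and 54.1% after a correction of each library for transcript length and GC content. Among the junction genes, quantile normalization left 24 falls and 3 rises (background 19.3% and 14.5%), median centring 22 and 4 (15.3% and 19.2%), and the correction for length and GC 19 and 4 (16.8% and 14.3%). Of the 28 genes that fell with TPM as deposited, 22 fell after quantile normalization, 22 after median centring and 18 after the correction. The 10 falls lost after the correction were those of Wasf2, Csnk2a2, Rhoa, Tjp1, Actg1, Ptprb, Ptprj, Csnk2a1, Ep300 and Afdn, with adjusted p from 0.0530 to 0.957. Negative values numbered 41 of 57 with median centring and 40 with the correction. Without Cd mice 5 and 6, 10 junction genes fell and 3 rose, with a background of 10.7% falls and 7.12% rises. The median of the junction genes minus that of all genes was -0.23 on the log2 scale with TPM as deposited and also with median centring, which moves all genes of a library alike and cannot change it. It was -0.26 with quantile normalization, -0.16 with the length and GC correction and -0.22 without those 2 mice. Of the calls, 9 held under every setting in which the gene was tested, including each library left out in turn. Among them were Vcl, Met, Ptprf, Ctnnd1, Lmo7, Farp2, Ptpn1 and Ssx2ip, and the other 20 calls were lost in at least 1 setting. The same was not counted over all genes, so the 9 cannot be read as particular to the junction genes.

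**Figure D1:**
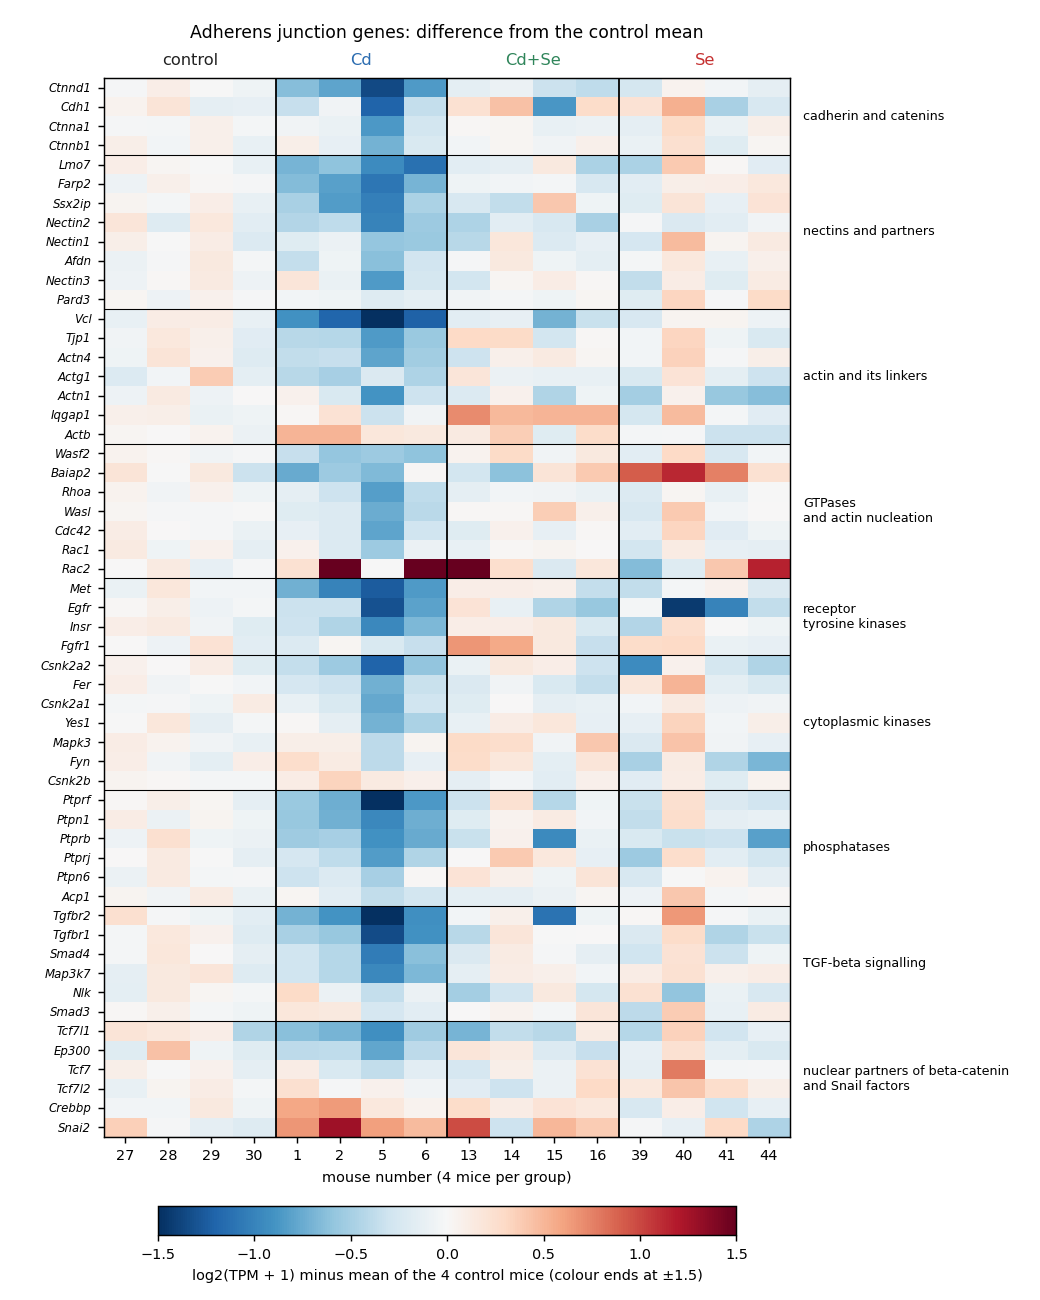
Difference of 55 of the 57 tested junction genes (rows, grouped by role and ordered by change in Cd) from the mean of the 4 control mice, in log2(TPM + 1), in each of the 16 mice (columns, by mouse number). Blue is lower and red is higher than control: the Cd columns are mostly blue, deepest in Cd mouse 5, and Se mouse 40 is mostly red.

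**Figure D2:**
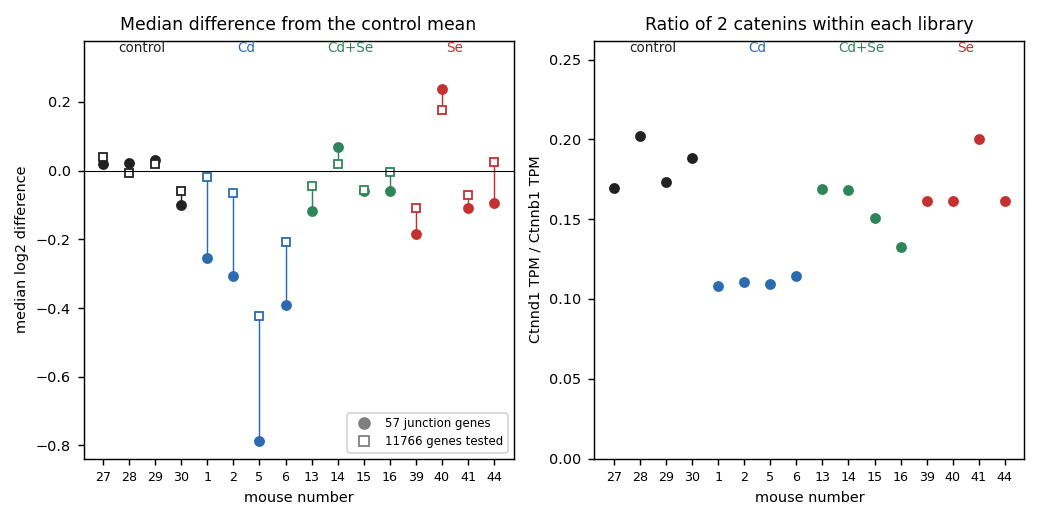
Left, median log2 difference from the control mean in each library for the 57 junction genes (filled circles) and for all 11766 genes tested (open squares): the circles lie below the squares in all 4 Cd mice. Right, the ratio of Ctnnd1 TPM to Ctnnb1 TPM within each library, between 0.108 and 0.114 in the Cd mice and at 0.132 or above elsewhere.

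In single libraries the same gap was seen. The median junction gene was -0.26, -0.31, -0.79 and -0.39 from the control mean in Cd mice 1, 2, 5 and 6 on the log2 scale, while the median of all genes was -0.02, -0.07, -0.42 and -0.21. In Cd mice 1 and 2, whose overall level was near that of control mice, the junction genes were lower and the typical gene was not far from 0. The pathway was chosen on these same Cd mice, so the gap is a description and not independent evidence. These values are without the correction for length and GC. The Cd+Se mice lay between -0.12 and 0.07 for the junction genes and the Se mice between -0.18 and 0.24, with Se mouse 40 as the highest.

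The cadherin and catenin genes changed unequally. Of the 4 tested, Ctnnd1 fell, and Cdh1, Ctnnb1 and Ctnna1 did not pass the threshold. Ctnnd1 encodes delta-catenin, which binds the cadherin tail near the membrane and keeps cadherin at the cell surface. It stood at 21.5, 23.4, 21.8 and 20.8 TPM in the control mice, 13.7, 12.2, 7.96 and 11.7 in the Cd mice, 19.6, 20.5, 17.3 and 16.6 in the Cd+Se mice and 18.0, 22.7, 21.1 and 19.8 in the Se mice. The Cd mice lay below all other mice, without overlap (log2 fold change -0.91 ± 0.14, adjusted p = 0.000370), and the Cd+Se mice were all below the lowest control mouse. Ctnnb1, the gene of beta-catenin, was the second most abundant member of the pathway. It was found at 127, 116, 126 and 110.3 TPM in the control mice, 127, 110.0, 72.8 and 102 in the Cd mice, 116, 122, 115 and 126 in the Cd+Se mice and 111, 141, 105 and 122 in the Se mice. Cd mouse 5 was low and Cd mouse 1 as high as any control mouse, so the groups overlapped (log2 fold change -0.24 ± 0.14, adjusted p = 0.207). Ctnna1 encodes alpha-catenin, which links beta-catenin to actin. It measured 31.1, 30.7, 33.0 and 30.8 TPM in the control mice, 30.3, 29.2, 16.9 and 25.7 in the Cd mice, 31.7, 32.0, 28.9 and 29.4 in the Cd+Se mice and 28.6, 38.5, 29.1 and 33.5 in the Se mice. All 4 Cd mice lay below the control mice, Cd mouse 1 by a small margin (log2 fold change -0.32 ± 0.15, adjusted p = 0.113). Cdh1 encodes E-cadherin, and its values were 9.28, 10.3, 8.02 and 8.06 TPM in the control mice, 6.77, 8.49, 3.31 and 6.73 in the Cd mice, 10.6, 12.4, 4.38 and 10.9 in the Cd+Se mice and 10.5, 13.2, 6.05 and 7.37 in the Se mice. Cd mouse 2 lay inside the control range, Cd mouse 5 and Cd+Se mouse 15 were low, and the change was not past the threshold (log2 fold change -0.49 ± 0.29, adjusted p = 0.213).

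Within each library, Ctnnd1 was set against Ctnnb1, a pair chosen after their values were seen, since a ratio inside a library does not depend on its scaling. It is not corrected for transcript length, the longest transcripts having 6362 bases for Ctnnd1 and 3623 for Ctnnb1. After the length and GC correction their log2 fold changes in Cd against control were -0.59 and 0.01. The ratio of their TPM was 0.170, 0.202, 0.173 and 0.188 in control mice and 0.108, 0.111, 0.109 and 0.114 in Cd mice. It was nearly the same in the 4 Cd mice, Cd mouse 5 included, and lower in each than in any control mouse, which is given as a description without a test. In Cd+Se mice it was 0.169, 0.168, 0.1505 and 0.132, and in Se mice 0.161, 0.161, 0.2003 and 0.162. The alpha-catenin relatives Ctnna2 and Ctnna3 were listed at or below 0.07 TPM in every mouse and were not tested.

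**Figure D3:**
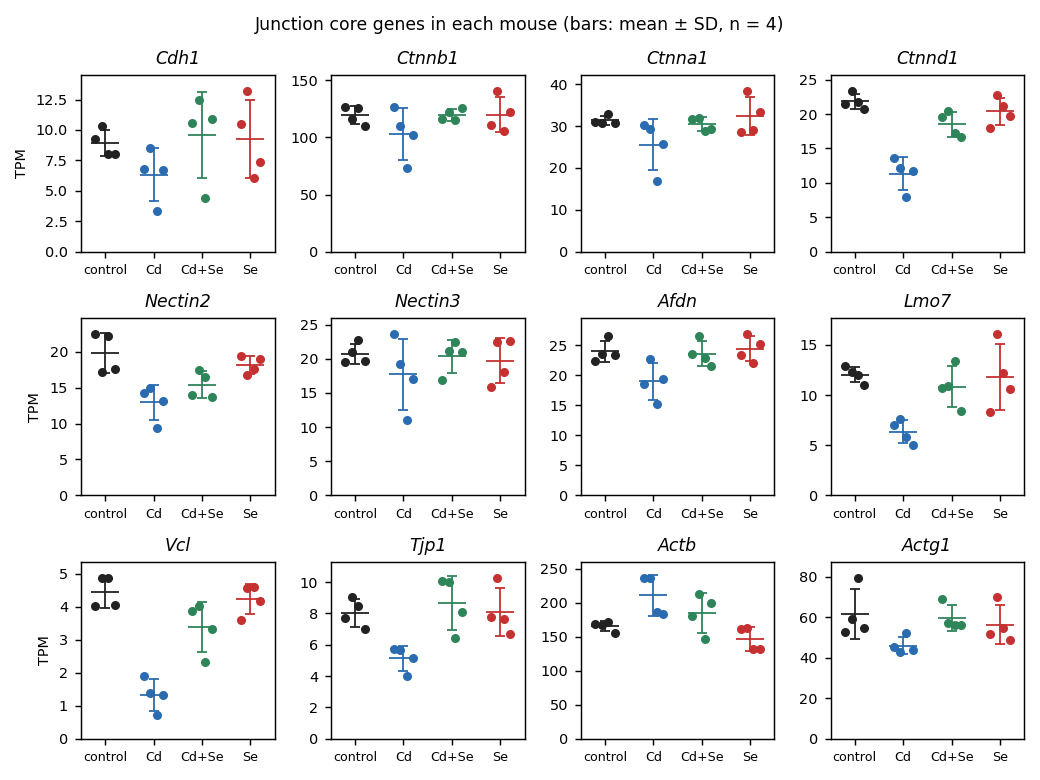
TPM of 12 junction genes in each mouse (points) with the mean ± SD of each group of 4 (bars), each panel starting at 0. Ctnnd1, Lmo7, Vcl and Tjp1 show Cd mice below all other mice, Cdh1, Ctnnb1 and Nectin3 show overlapping groups, and Actb shows the Cd mice above the control mice.

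Nectins and the proteins around them had 6 falls among 9 tested, beside 24.9% of all genes. Lmo7, which encodes a protein that links afadin to alpha-actinin, was at 12.9, 12.3, 11.98 and 11.01 TPM in the control mice, 7.0, 7.57, 5.79 and 5.0 in the Cd mice, 10.7, 10.9, 13.4 and 8.37 in the Cd+Se mice and 8.35, 16.1, 12.2 and 10.6 in the Se mice. Each Cd mouse was lower than any mouse of the other groups (log2 fold change -0.84 ± 0.17, adjusted p = 0.00245). Farp2 encodes an exchange factor for Rac. It was measured at 5.28, 5.96, 5.71 and 5.51 TPM in the control mice, 3.22, 2.75, 2.11 and 3.08 in the Cd mice, 5.30, 5.42, 5.50 and 4.61 in the Cd+Se mice and 4.93, 6.01, 6.07 and 6.38 in the Se mice. The Cd mice lay below every other mouse, and the control values were within a narrow range (log2 fold change -0.81 ± 0.11, adjusted p = 0.000266). Ssx2ip, whose product binds afadin and is also found at centrosomes, had 4.28, 4.02, 4.51 and 3.75 TPM in the control mice, 2.65, 1.87, 1.52 and 2.69 in the Cd mice, 3.36, 2.96, 5.78 and 3.89 in the Cd+Se mice and 3.53, 4.85, 3.73 and 4.92 in the Se mice. The Cd mice lay below all others, with Cd+Se mice 13 and 14 next to them (log2 fold change -0.71 ± 0.17, adjusted p = 0.00603).

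The nectins themselves differed. Nectin2 stood at 22.5, 17.2, 22.2 and 17.6 TPM in the control mice, 14.3, 14.95, 9.38 and 13.1 in the Cd mice, 14.01, 17.5, 16.5 and 13.8 in the Cd+Se mice and 19.5, 16.8, 17.6 and 19.0 in the Se mice. All Cd mice were below all control mice, and the Cd+Se values overlapped both groups (log2 fold change -0.59 ± 0.14, adjusted p = 0.00568 for Cd against control). The Nectin2 call was lost without Cd mice 5 and 6 (-0.41, adjusted p = 0.0541 in limma). Nectin3, a partner of the other nectins across the cell contact, was at 19.5, 21.0, 22.7 and 19.7 TPM in the control mice, 23.6, 19.3, 11.03 and 17.0 in the Cd mice, 16.9, 21.2, 22.5 and 21.0 in the Cd+Se mice and 15.82, 22.5, 18.1 and 22.6 in the Se mice. Cd mouse 1 had the highest value of all and Cd mouse 5 the lowest, and the change did not pass the threshold (log2 fold change -0.26 ± 0.18, adjusted p = 0.291). Afdn, the gene of afadin, had 22.4, 23.6, 26.5 and 23.4 TPM in the control mice, 18.5, 22.7, 15.2 and 19.4 in the Cd mice, 23.5, 26.5, 22.8 and 21.5 in the Cd+Se mice and 23.4, 26.8, 22.01 and 25.2 in the Se mice. It fell with TPM as deposited although Cd mouse 2 overlapped the control mice (log2 fold change -0.33 ± 0.12, adjusted p = 0.0409), and the log2 fold change was -0.01 after the length and GC correction (adjusted p = 0.957). The call for Afdn was also lost without any 1 of the control mice, Cd mouse 1, 5 or 6, or Se mouse 44 (adjusted p up to 0.120). Nectin1, another nectin (log2 fold change -0.35 ± 0.17, adjusted p = 0.124), and Pard3, a polarity protein (log2 fold change -0.11 ± 0.11, adjusted p = 0.464), did not pass the threshold, and Nectin4 was at 0.14 TPM or less in every mouse.

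Actin and its linkers included both falls and the most abundant member. Of 7 genes tested, Vcl, Tjp1, Actn4 and Actg1 fell, while Actb, Actn1 and Iqgap1 did not pass the threshold. Vcl encodes vinculin, which joins alpha-catenin to actin under tension. It stood at 4.02, 4.88, 4.88 and 4.06 TPM in the control mice, 1.89, 1.38, 0.710 and 1.34 in the Cd mice, 3.88, 4.01, 2.33 and 3.32 in the Cd+Se mice and 3.60, 4.58, 4.59 and 4.18 in the Se mice. The Cd mean was 0.298 times the control mean, with all Cd mice below 2 TPM (log2 fold change -1.25 ± 0.16, adjusted p = 0.000169), and the Cd+Se mice lay between the Cd and control mice, below the lowest control value in each. Tjp1, the gene of a zonula occludens scaffold that binds alpha-catenin and afadin, had 7.69, 9.02, 8.46 and 7.0 TPM in the control mice, 5.74, 5.68, 4.01 and 5.13 in the Cd mice, 10.1, 10.02, 6.44 and 8.11 in the Cd+Se mice and 7.76, 10.3, 7.64 and 6.67 in the Se mice. Its Cd values lay below those of all other mice (log2 fold change -0.56 ± 0.15, adjusted p = 0.0119), and the call was lost after the length and GC correction (-0.24, adjusted p = 0.133) and without Cd mice 5 and 6 (adjusted p = 0.112). Actn4, an alpha-actinin that crosslinks actin, fell as well (log2 fold change -0.51 ± 0.14, adjusted p = 0.0108), from 30.6 ± 3.59 to 21.3 ± 2.99 TPM (SD, n = 4), whereas Actn1 had a log2 fold change of -0.34 ± 0.19 (adjusted p = 0.183). The Actn4 call was lost without Cd mice 5 and 6 (-0.36, adjusted p = 0.110 in limma).

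The 2 cytoplasmic actin genes had changes of opposite sign under every setting run. Actb, the beta-actin gene, was at 169, 167, 171 and 155 TPM in the control mice, 237, 236, 186 and 184 in the Cd mice, 181, 213, 146 and 199.9 in the Cd+Se mice and 162, 163, 132 and 132 in the Se mice. All Cd mice were above all control mice, and the difference missed the threshold (log2 fold change 0.34 ± 0.13, adjusted p = 0.0630). It passed after quantile normalization (0.36, adjusted p = 0.0206), after the length and GC correction (0.46, adjusted p = 0.00494) and without Cd mice 5 and 6 (0.51, adjusted p = 0.0271). Actg1, the gamma-actin gene, was at 52.6, 59.1, 79.5 and 54.8 TPM in the control mice, 45.2, 42.7, 52.1 and 43.6 in the Cd mice, 69.0, 57.1, 56.0 and 56.1 in the Cd+Se mice and 51.6, 70.1, 54.6 and 48.9 in the Se mice. Its Cd values were all below the lowest control value, with control mouse 29 far above the rest (log2 fold change -0.40 ± 0.14, adjusted p = 0.0419), and the call was lost without control mouse 28 or 29, Cd mouse 1, 2 or 6, Cd+Se mouse 14 or Se mouse 41 (adjusted p up to 0.152). The ratio of Actb to Actg1 TPM within a library was 2.16 to 3.22 in control mice and 3.58 to 5.53 in Cd mice, without overlap, also a description since this pair was likewise chosen after the values were seen. Actin genes have many pseudogenes, and how their shared reads were divided is not given in the sources used here. Iqgap1, the gene of a scaffold that binds Cdc42, Rac1 and beta-catenin, is described with the Se groups below.

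The upstream sequences of Vcl and Actg1 are shown because both genes fell with TPM as deposited and both hold a CArG box. These are the binding letters of serum response factor, which is known for driving genes of the actin cytoskeleton. The 2 genes were thus picked for the fall and the box together. The Actg1 call was lost after the length and GC correction (limma, adjusted p = 0.162). The box was searched as CC, then 6 letters A or T, then GG, a motif that reads as itself on the other strand. It was found in the window from 250 bases before to 50 bases after the start site in 1.81% of 27025 genes in the RefSeq promoter table (GRCm38.p6). Only 43 of the 57 tested junction genes matched that table, which is too few for a share among them to be read. Actb, for which all Cd mice lay above the control mice, was not among the 43. The box was in 3 of the 43, the third being Tcf7, which did not pass the threshold (log2 fold change -0.16 ± 0.18, adjusted p = 0.534). The 250 bases before each start site are printed 5′ to 3′ on the gene's strand, with the CArG box in capitals. The Actg1 window is chr11:120348496-120348745, minus strand, with the box beginning 90 bases before the start, and the Vcl window is chr14:20929148-20929397, plus strand, with the box beginning 227 bases before it.
Actg1: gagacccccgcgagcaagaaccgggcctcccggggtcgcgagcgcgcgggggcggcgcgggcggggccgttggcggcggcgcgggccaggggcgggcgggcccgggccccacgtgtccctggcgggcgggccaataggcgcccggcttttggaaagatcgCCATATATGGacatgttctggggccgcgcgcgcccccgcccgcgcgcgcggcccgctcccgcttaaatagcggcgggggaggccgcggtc
Vcl: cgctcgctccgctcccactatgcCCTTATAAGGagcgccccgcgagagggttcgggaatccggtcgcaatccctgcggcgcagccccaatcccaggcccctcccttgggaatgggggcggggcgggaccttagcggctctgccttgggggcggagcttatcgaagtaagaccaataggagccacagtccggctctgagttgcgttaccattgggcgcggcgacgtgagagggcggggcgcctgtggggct
The match is a description of the letters only, and no factor's binding was measured.

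Among small GTPases and actin nucleation factors, 2 of 7 tested genes fell, a share near the 24.9% of all genes. Wasf2 encodes a WAVE protein that turns Rac signals into branched actin. It stood at 5.10, 4.95, 4.68 and 4.84 TPM in the control mice, 3.65, 2.93, 3.03 and 2.87 in the Cd mice, 5.11, 6.16, 4.70 and 5.52 in the Cd+Se mice and 4.29, 6.27, 3.99 and 4.71 in the Se mice. The Cd mice were below all other mice (log2 fold change -0.52 ± 0.12, adjusted p = 0.00558). Rhoa, the gene of the GTPase that drives actomyosin tension, fell from 75.5 ± 3.67 to 57.3 ± 11.2 TPM (log2 fold change -0.41 ± 0.12, adjusted p = 0.0189), and the call was lost without control mouse 29 (adjusted p = 0.0535). The Rhoa value was -0.14 after the length and GC correction (adjusted p = 0.127) and -0.22 without Cd mice 5 and 6 (adjusted p = 0.127). The other abundant GTPase genes, Cdc42 (log2 fold change -0.36 ± 0.14, adjusted p = 0.0707) and Rac1 (log2 fold change -0.19 ± 0.13, adjusted p = 0.260), did not pass, nor did Wasl (log2 fold change -0.38 ± 0.14, adjusted p = 0.0526), an activator of actin branching downstream of Cdc42.

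Rac2, the GTPase of blood cells, was at 1.45, 1.67, 1.24 and 1.41 TPM in the control mice, 1.85, 9.57, 1.42 and 7.85 in the Cd mice, 6.45, 1.90, 1.09 and 1.74 in the Cd+Se mice and 0.550, 1.13, 2.23 and 4.43 in the Se mice. Cd mice 2 and 6 and Cd+Se mouse 13 were high while the other mice treated with Cd were near control, so the spread was wide (log2 fold change 1.05 ± 0.49, adjusted p = 0.113). Neutrophil markers summed to 40.04 and 31.7 TPM in Cd mice 2 and 6, to 37.3 and 34.1 TPM in Cd mice 1 and 5 and to 74.3 TPM in Cd+Se mouse 13. Of these 5 markers, 2 rose in Cd against control, S100a8 and S100a9, which made up most of the sum (means of 12.65 and 21.25 TPM in Cd mice). Ly6g was at 0.17 TPM or less and Cxcr2 at 0.65 TPM or less in every mouse, so the sum says little about these 2 markers. Their sum ranged from 6.30 to 16.8 TPM in control, 31.7 to 40.04 in Cd, 43.2 to 74.3 in Cd+Se and 5.60 to 9.65 in Se mice, and its part in the Rac2 values was not tested. Was, the blood cell relative of Wasl, was below the limit of 1 TPM in the mean, as were Wasf1, Wasf3 and Rac3.

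The receptor tyrosine kinase genes Met and Insr fell, and Egfr and Fgfr1 did not pass. Met, the receptor of hepatocyte growth factor, was at 17.1, 20.9, 17.8 and 17.9 TPM in the control mice, 10.8, 8.66, 7.16 and 9.78 in the Cd mice, 19.8, 19.7, 19.4 and 14.1 in the Cd+Se mice and 13.97, 18.0, 19.3 and 15.6 in the Se mice. Its Cd values were all below those of the other groups, and Cd+Se mouse 16 was lower than the other Cd+Se mice (log2 fold change -0.95 ± 0.14, adjusted p = 0.000363). Insr, the insulin receptor, fell from 23.7 ± 2.44 to 15.5 ± 3.15 TPM (log2 fold change -0.60 ± 0.16, adjusted p = 0.0104). The Insr call was lost without Cd mice 5 and 6 (-0.38, adjusted p = 0.134 in limma), and the value was -0.27 after the length and GC correction. Egfr, the epidermal growth factor receptor and an abundant hepatocyte mRNA, was at 105, 111, 98.9 and 102 TPM in the control mice, 82.9, 83.1, 41.7 and 59.5 in the Cd mice, 119.9, 96.3, 75.9 and 70.2 in the Cd+Se mice and 102, 37.9, 51.8 and 80.5 in the Se mice. The Cd mice lay below the control mice without passing the threshold (log2 fold change -0.69 ± 0.27, adjusted p = 0.0653), and Se mice 40 and 41 were as low as Cd mice although they had no Cd. The fall passed in a model of Cd and control mice alone and without Cd mouse 1, Se mouse 39 or Se mouse 40. It did not pass in 22 of the 26 alternative settings. Fgfr1, a fibroblast growth factor receptor, had a log2 fold change of -0.19 ± 0.19 (adjusted p = 0.489), and Igf1r and Erbb2 were under 1 TPM in the mean.

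Of the phosphatases that remove phosphate from junction proteins or receptors, 4 of 6 tested fell, beside 24.9% of all genes. Ptprf, a receptor phosphatase (LAR) that sits at junctions, stood at 16.7, 17.7, 16.9 and 14.9 TPM in the control mice, 10.9, 9.55, 5.23 and 8.63 in the Cd mice, 12.95, 19.5, 12.1 and 15.76 in the Cd+Se mice and 12.9, 19.8, 14.03 and 13.3 in the Se mice. All Cd mice were below all other mice (log2 fold change -0.91 ± 0.19, adjusted p = 0.00279). Ptpn1, which dephosphorylates the insulin receptor and cadherin complexes, was at 6.14, 5.20, 5.77 and 5.29 TPM in the control mice, 3.43, 3.0, 2.36 and 2.96 in the Cd mice, 4.83, 5.82, 6.18 and 5.41 in the Cd+Se mice and 4.10, 6.92, 5.01 and 5.12 in the Se mice. The Cd mice were again lowest without overlap (log2 fold change -0.75 ± 0.13, adjusted p = 0.00102). Ptprj fell (log2 fold change -0.48 ± 0.17, adjusted p = 0.0391), and so did Ptprb, a phosphatase of endothelial cells (log2 fold change -0.67 ± 0.19, adjusted p = 0.0160). The call was lost for Ptprj without control mouse 27, 28 or 29 or Cd mouse 2, 5 or 6 (adjusted p up to 0.125) and for Ptprb without control mouse 28 or Cd mouse 5 (up to 0.0526). Of the 7 endothelial markers 3 fell and none was at 0 in all libraries, and their sum ranged from 64.3 to 76.6 TPM in control, 39.8 to 59.4 in Cd, 44.2 to 86.9 in Cd+Se and 45.9 to 74.8 in Se mice. Their part in the Ptprb values was not tested. Ptpn6, mostly of blood cells (log2 fold change -0.25 ± 0.12, adjusted p = 0.128), and Acp1, a small cytosolic phosphatase (log2 fold change -0.19 ± 0.12, adjusted p = 0.237), did not pass, and Ptprm was under 1 TPM in the mean.

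Cytoplasmic kinases were mixed, with 3 falls among 8 tested, beside 24.9% of all genes. Mapk3, a kinase of the growth factor cascade, did not pass (log2 fold change -0.04 ± 0.15, adjusted p = 0.850). The catalytic subunits of casein kinase II, Csnk2a2 (log2 fold change -0.67 ± 0.20, adjusted p = 0.0198) and Csnk2a1 (log2 fold change -0.35 ± 0.12, adjusted p = 0.0406), fell, and their regulatory subunit Csnk2b had a log2 fold change of 0.16 ± 0.10 (adjusted p = 0.223), with all Cd mice above all control mice. The call for Csnk2a2 was lost without control mouse 29 or Cd mouse 5 (adjusted p up to 0.0700) and that for Csnk2a1 without any 1 of the control mice, Cd mouse 5 or 6, or Se mouse 44 (up to 0.103). Both calls were also lost after the length and GC correction, with log2 fold changes of -0.35 and -0.09. The Src family and related kinases Yes1 (-0.33 ± 0.15), Fyn (-0.03 ± 0.18) and Fer (-0.40 ± 0.16) did not pass, and Src was under 1 TPM in the mean.

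TGF-beta signalling is known to loosen epithelial junctions, and 4 of its 6 tested genes in the pathway fell, beside 24.9% of all genes. Tgfbr2, the receptor that binds the ligand, stood at 5.72, 4.65, 4.45 and 4.10 TPM in the control mice, 2.49, 2.05, 1.0 and 2.01 in the Cd mice, 4.52, 5.03, 1.65 and 4.47 in the Cd+Se mice and 4.78, 7.91, 4.64 and 4.34 in the Se mice. The Cd mice were below all control mice, Cd+Se mouse 15 was as low as the Cd mice and Se mouse 40 was above all others (log2 fold change -1.01 ± 0.24, adjusted p = 0.00638). Tgfbr1, its signalling partner, was at 9.77, 11.3, 10.5 and 8.64 TPM in the control mice, 6.88, 6.43, 3.35 and 4.87 in the Cd mice, 7.24, 11.5, 9.98 and 10.01 in the Cd+Se mice and 8.44, 12.3, 7.02 and 7.70 in the Se mice. The Cd mice lay below all other mice, with Se mouse 41 the nearest (log2 fold change -0.82 ± 0.19, adjusted p = 0.00545). Smad4, the shared SMAD that carries the signal to the nucleus, had 9.25, 10.7, 9.48 and 8.51 TPM in the control mice, 7.5, 6.77, 4.07 and 5.76 in the Cd mice, 7.98, 10.4, 9.33 and 8.51 in the Cd+Se mice and 7.48, 11.2, 7.37 and 9.03 in the Se mice. All Cd mice were below all control mice (log2 fold change -0.60 ± 0.16, adjusted p = 0.0102), and Cd mouse 1 overlapped the Se mice.

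Map3k7, a kinase downstream of the receptors, was at 9.21, 11.4, 11.7 and 8.77 TPM in the control mice, 8.11, 7.30, 4.73 and 6.0 in the Cd mice, 9.18, 11.1, 10.8 and 9.89 in the Cd+Se mice and 11.04, 12.1, 10.8 and 11.1 in the Se mice. The Cd mice were below the rest (log2 fold change -0.59 ± 0.14, adjusted p = 0.00495). Smad3, a SMAD that the receptors phosphorylate (log2 fold change -0.02 ± 0.15, adjusted p = 0.927), and Nlk, a kinase that restrains TCF factors (log2 fold change -0.06 ± 0.18, adjusted p = 0.820), did not pass. After the length and GC correction Smad3 had the opposite sign and passed (0.26, adjusted p = 0.0485). Without Cd mice 5 and 6, none of the 4 genes kept an adjusted p under 0.05 in limma, the values being 0.0720 for Tgfbr2, 0.0808 for Tgfbr1, 0.118 for Smad4 and 0.0619 for Map3k7.

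The nuclear partners of beta-catenin and the Snail factors had no common direction. Snai2, which encodes the cadherin repressor Slug, rose (log2 fold change 0.76 ± 0.25, adjusted p = 0.0287). It was at 3.65, 2.57, 2.30 and 2.16 TPM in the control mice and 4.73, 7.79, 4.54 and 4.06 in the Cd mice. The Cd+Se mice had 6.14, 1.92, 4.13 and 3.74 TPM, which overlapped both groups, and the Se mice 2.57, 2.34, 3.48 and 1.63. The Cd and control mice did not overlap, and the call was lost without Cd mouse 2 or any 1 of control mice 28, 29 and 30 (adjusted p up to 0.0905). Tcf7l1 fell (log2 fold change -0.69 ± 0.20, adjusted p = 0.0174) from 2.38 ± 0.643 to 1.07 ± 0.229 TPM, and the coactivator Ep300 fell (log2 fold change -0.49 ± 0.17, adjusted p = 0.0367). The call was lost for Tcf7l1 without control mouse 27 or 28 or Cd mouse 5 (adjusted p up to 0.0552) and for Ep300 without control mouse 28 or 29 or Cd mouse 5 or 6 (up to 0.131). Crebbp, a relative of Ep300, had a log2 fold change of 0.36 ± 0.14 (adjusted p = 0.0614) with TPM as deposited and of 0.68 (adjusted p = 0.000247) after the length and GC correction. Tcf7l2 (0.06 ± 0.13) and Tcf7 (-0.16 ± 0.18) did not pass, and Snai1 and Lef1 were under 1 TPM in the mean. The annotation also lists 4930544G11Rik and Gm28635, which were at 0 TPM in every mouse.

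**Figure D4:**
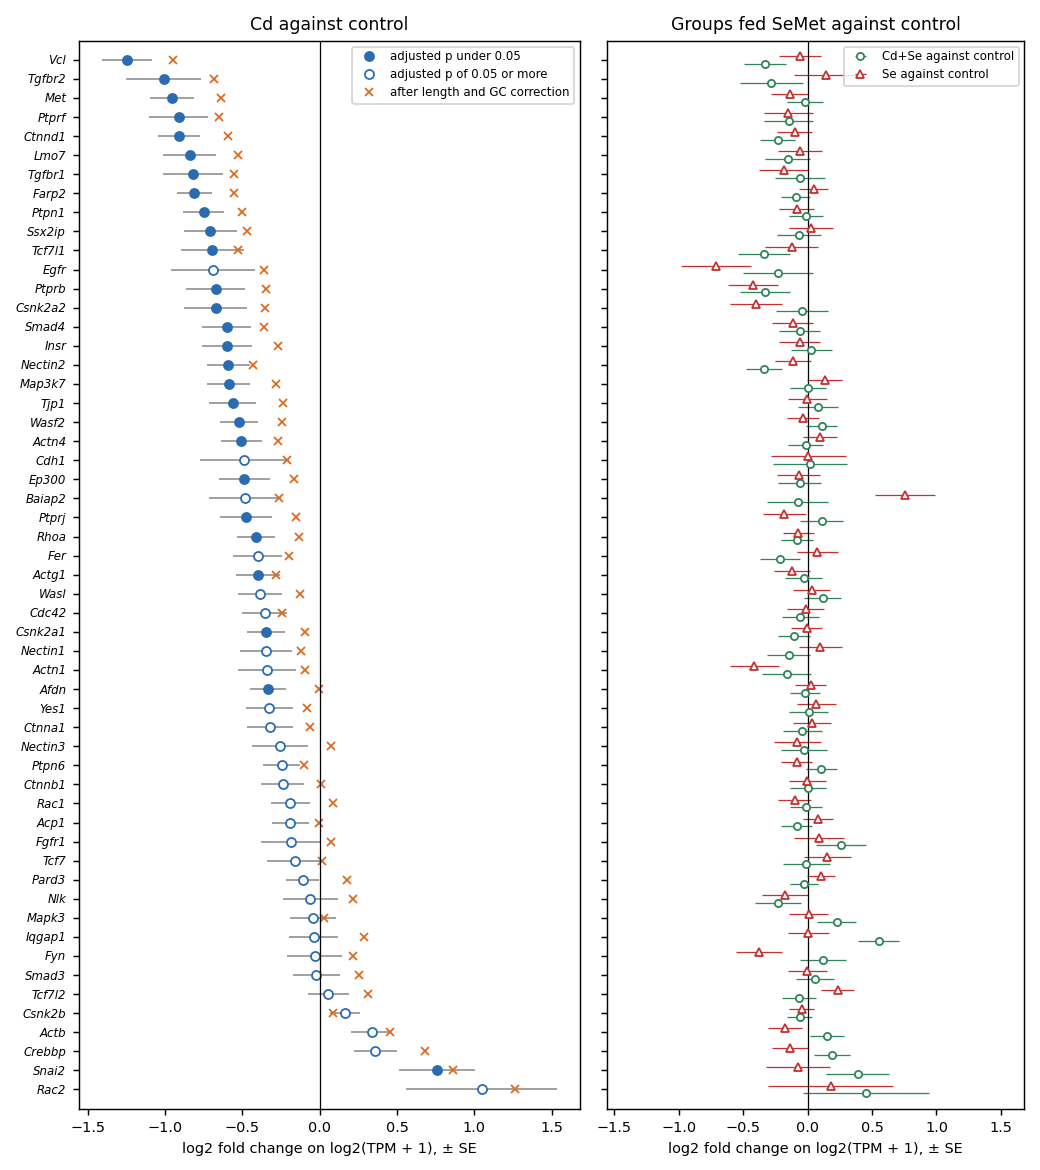
Left, log2 fold change ± SE of 55 of the 57 junction genes in Cd against control (filled, adjusted p under 0.05), with the value after the length and GC correction as a cross. Right, the same genes in Cd+Se against control (circles) and Se against control (triangles), where most lie near 0 and none had an adjusted p under 0.05.

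Long transcripts fell more than short ones in Cd mice, and junction genes are long. The longest annotated transcript had a median of 4430 bases among the junction genes and 3085 bases among all tested genes with an annotated transcript, and 44 of the 57 were above the latter. Across the 11561 genes with a length, the rank correlation of length with the Cd change was -0.28, and across the 57 junction genes it was -0.39, both as descriptions over genes that share libraries. When all genes were cut into 4 equal bins by length, the longest bin, above 4545 bases, had the most falls. There the median log2 fold change was -0.56 for 27 junction genes and -0.30 for all genes, and 18 of the 27 fell where 36.4% of all genes in the bin did. In the next bin, from 3085 to 4545 bases, it was -0.38 for 17 junction genes and -0.25 for all genes, with 7 falls beside 30.8%. In the second, from 1909 to 3085 bases, it was -0.25 for 11 junction genes and -0.17 for all genes, with 3 falls beside 23.6%. The shortest bin held 2 junction genes, with no fall and a median of 0.06, beside 0.03 for all genes and 10.2% falls. The part of transcript length in single changes was not tested beyond the length and GC correction given above.

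**Figure D5:**
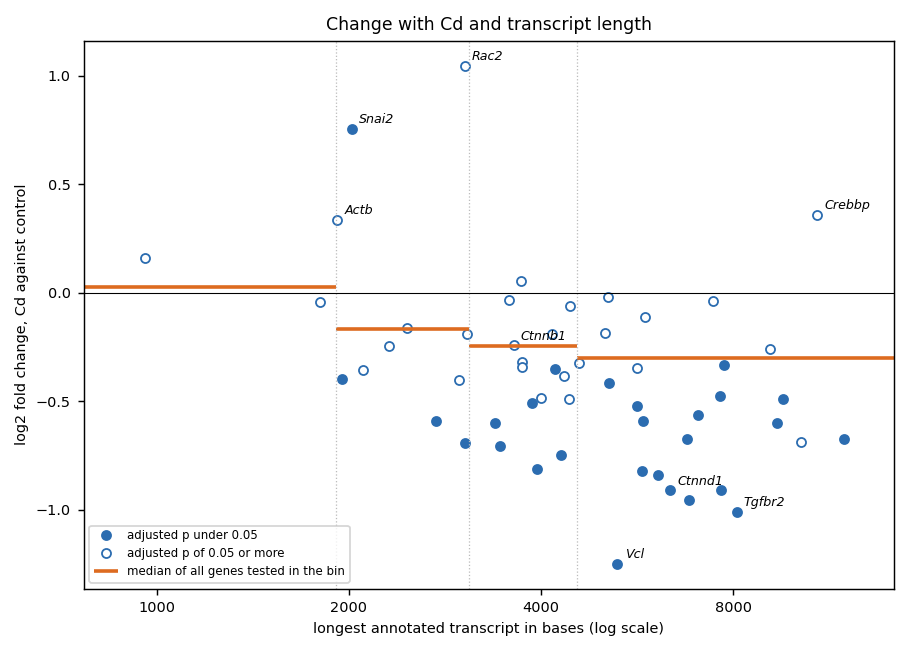
Log2 fold change in Cd against control of 55 of the 57 junction genes (points, filled where the adjusted p was under 0.05) against the length of its longest annotated transcript in bases, on a log scale. Orange lines mark the median of all tested genes in each of 4 equal length bins, and most points of the 2 longest bins lie below them.

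No junction gene passed the threshold in the comparisons of mice fed SeMet with each other or with control mice. Cd+Se against Se, which shares its 4 Cd+Se mice with the comparison that chose the pathway, had 0 of 57 calls in limma (background 0.714% of all genes), with 6 genes at an unadjusted p under 0.05 (10.9% of all genes), and a median log2 fold change of 0.00 where all genes had -0.03. Cd+Se against control had 0 calls in limma (background 0.484%), with 3 genes at an unadjusted p under 0.05 (10.9% of all genes) and a median of -0.04. Se against control, which shares no mouse with the comparison that chose the pathway, had 0 calls in limma (background 0%), with 5 genes at an unadjusted p under 0.05 (3.86% of all genes) and a median of -0.05. A p that misses the threshold does not show that these groups were alike.

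Iqgap1 was highest in the Cd+Se mice. It was at 1.79, 1.83, 1.47 and 1.54 TPM in the control mice, 1.68, 2.08, 1.12 and 1.55 in the Cd mice, 3.33, 2.71, 2.77 and 2.77 in the Cd+Se mice and 1.21, 2.70, 1.61 and 1.36 in the Se mice. All 4 Cd+Se mice were above every mouse of the other groups, Se mouse 40 by a small margin. The log2 fold change was 0.55 ± 0.16 in Cd+Se against control (adjusted p = 0.165) and 0.55 ± 0.16 in Cd+Se against Se (adjusted p = 0.164). After quantile normalization the adjusted p was 0.0455 and 0.0432. Baiap2, which bends membranes for Rac and Cdc42, was at 8.70, 7.39, 8.33 and 5.74 TPM in the control mice, 4.01, 4.82, 4.35 and 7.58 in the Cd mice, 6.0, 4.50, 8.70 and 10.1 in the Cd+Se mice and 14.8, 17.6, 13.3 and 8.93 in the Se mice. All Se mice were above all control mice, Se mouse 44 by a small margin (log2 fold change 0.76 ± 0.24, adjusted p = 1.0 for Se against control). Vcl and Ctnnd1 were lower in every Cd+Se mouse than in any control mouse, with log2 fold changes of -0.33 ± 0.16 and -0.23 ± 0.14 and adjusted p of 0.478 and 0.566. Cd+Se mice lay wholly below control mice for 3 of 57 junction genes, beside 586 of 11766 genes, and wholly above for 1, beside 457. They lay wholly above Se mice for 2, beside 231, and Se mice lay wholly above control mice for 1, beside 152. Such separation was thus not particular to the junction genes.

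Cd+Se against Cd is the contrast that chose the pathway, so its values describe the choice. An excess over the share of all genes was thus fixed in advance, and the threshold serves here only to count. By the same limma threshold 21 of the 57 genes were higher in Cd+Se than in Cd and none was lower, beside 13.6% of all genes higher and 2.35% lower. The 4 Cd+Se mice lay wholly above the 4 Cd mice for 23 junction genes, beside 16.1% of all genes. The median difference was 0.36 for the junction genes and 0.17 for all genes. Among the largest differences were those of Met (0.93 ± 0.14), Vcl (0.92 ± 0.16), Tgfbr1 (0.76 ± 0.19) and Ptprf (0.76 ± 0.19). The count was 9 without Cd mouse 5 (5.02% of all genes higher), 9 without Cd+Se mouse 14 (5.19%), 6 without Cd mice 5 and 6 (1.87%) and 2 in a model of those 2 groups alone (0.399%). The calls over all genes thus dropped in these settings too.

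The interaction asks whether the effect of Cd differed with SeMet, as Cd+Se minus Se less Cd minus control. It contains the contrast that chose the pathway, so its counts are given as a description and not as a test. The limma threshold was passed by 3 of 57 genes (background 1.04%), among them Met (1.07 ± 0.20) and Ptpn1 (0.82 ± 0.19). In both of these genes, the Cd mice were far below control and the Cd+Se mice near the Se mice. The call was lost for Met in 7 of the 16 fits with 1 mouse left out and for Ptpn1 in 13 of them. With all libraries, 0.901% of all genes passed with a positive value. The count was 13 without Se mouse 40 (2.73% of all genes) and 6 without Cd mouse 1 (1.75%). It was 0 without Cd+Se mouse 14 (0.0170%), control mouse 28 (0.0935%) or control mouse 29 (0.00850%), and 0 without Cd mice 5 and 6 (0.187%). The share over all genes thus moved in these settings too.

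Genes of neighbouring junctions, from a list of 46 written from general knowledge, were also looked at. Of the 43 tested, 15 fell in Cd against control, beside the 24.9% of all genes. The median log2 fold change of the 43 was -0.30, and that of all genes -0.17. This list was looked at with TPM as deposited only, so how its values move with scaling or transcript length was not tested. The 6 with the smallest p were Nf2, Jup, Cldn12, Magi3, Limd1 and Dsp. Dsp, the desmosomal anchor of intermediate filaments, had a log2 fold change of -0.94 (adjusted p = 0.00562). Cldn12, a claudin, had -0.90 (adjusted p = 0.00112), Magi3, a scaffold, -0.77 and Jup, the gene of plakoglobin and a relative of beta-catenin, -0.74. The main connexins of hepatocytes, Gjb1 (-0.21, adjusted p = 0.162) and Gjb2 (-0.23, adjusted p = 0.285), did not pass, and neither did Ocln or F11r of the tight junction. Cdh2, the cadherin that hepatocytes carry beside Cdh1, fell from 28.1 to 21.0 TPM (-0.42, adjusted p = 0.0211).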

How the data were processed

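Liver RNA-seq of 16 mice was analysed, 4 per group, with groups and mouse numbers taken from the sample titles. The authors deposited 1 table of TPM values for 57010 rows with symbols, biotypes and KEGG identifiers, and no sequencing depth. Per the labels, poly(A) mRNA was sequenced on the Illumina NovaSeq platform and each title names 2 runs of a mouse, for which the table has 1 column. The submitters' processing notes name fastp, HISAT2 and StringTie and the build GRCh38, a human build, although the rows carry mouse Ensembl identifiers, so no coordinates were taken from the table. How reads shared by near-identical genes were counted is not given in the sources used here.

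The 11766 genes whose TPM averaged 1 or more across all libraries were compared as log2(TPM + 1) with limma 3.58.1 in R 4.3.3, in 1 model with a mean for each group, 12 residual degrees of freedom and an intensity trend in eBayes. The Benjamini-Hochberg adjustment ran over all genes tested, with a threshold of 0.05. For single values of a library, the exact permutation test (two-sided) used all 70 ways to split 8 mice into 4 and 4. The steps were tested on simulated data. Alternatives were a pseudocount of 0.1, no filter, a mean of at least 5 TPM, quantile normalization, median centring, scaling to the nuclear protein-coding total, only the groups compared, no trend, a loess correction (span 0.5) on transcript length and GC content from GENCODE M21 (98.3% of tested genes), and each mouse left out. Leaving out Cd mice 5 and 6 together was added after seeing the data. Upstream sequences are from RefSeq (GRCm38.p6).

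The members and lists were chosen with earlier results of these data known. Values in every mouse are given for a junction core of 11 genes, the 15 called genes with the smallest p in Cd against control and genes called in the interaction. Those for Egfr, Rac2, Iqgap1, Baiap2 and Snai2 were added after their values were seen. Other members are named by role, except 2 tested genes that are not reported here but are included in the counts. No covariate was used, as no batch is named in the labels. The label of each mouse was taken to mark a separate animal.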

Additional observations from a re-analysis of the deposited data

Results flagged for a closer look

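2 kinds of result stood out, a single mouse far from the other 3 of its group and an effect of Cd that differed with diet. The first was looked for by Dixon's ratio, the gap of the highest or lowest mouse to its neighbour divided by the range of the group, in 92 groups of the 23 genes given by a fixed rule. It was past the 95% limit in 5 of them, where chance gives about 1 in 20, or 4.6.

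Actg1 was high in Cd+Se mouse 13 (69.0 TPM against 56.0 to 57.1 in the other 3, ratio 0.914). Met was low in Cd+Se mouse 16 (14.1 TPM against 19.4 to 19.8, ratio 0.944). Ptprf was high in Se mouse 40 (19.8 TPM against 12.9 to 14.03, ratio 0.831). Tgfbr2 was low in Cd+Se mouse 15 (1.65 TPM against 4.47 to 5.03, ratio 0.834) and high in Se mouse 40 (7.91 TPM against 4.34 to 4.78, ratio 0.877). Se mouse 40 also had the highest median over all genes of the 16 libraries.

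By the interaction term in limma, SeMet went with a different effect of Cd for Met (1.07 on the log2 scale) and Ptpn1 (0.825). This term contains the difference between Cd+Se and Cd mice for which the pathway was chosen, so these values describe that choice and support nothing further. The call was lost for Met in 7 and for Ptpn1 in 13 of the 16 fits with 1 mouse left out. Without Cd mice 5 and 6 the terms were 0.98 and 0.72, and neither passed the threshold.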

How the results depend on the processing

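Of the 57 genes, 13 took the opposite sign in at least 1 alternative in Cd against control, all with a change of at most 0.26 in size as reported, and Smad3 alone passed there (0.26, adjusted p = 0.0485, with the length and GC correction). In Cd+Se against Cd 10 genes did so. Among the 23 genes given in full by a fixed rule, the sign turned in Cd against control for Ctnnb1 with the length and GC correction (0.0113), Nectin3 with it (0.0718) and Nectin3 without Cd mice 5 and 6 (0.0421). The count of junction genes that fell with Cd was 28, beside 24.9% of all genes, and became 10 without Cd mice 5 and 6, beside 10.7%. The count that rose was 1, Snai2, beside 5.82% of all genes. It became 0 with no filter (2.20%), and 3 with quantile normalization (14.5%), with the protein-coding total (8.30%) and without those mice (7.12%). With median centring (19.2%) and with the length and GC correction (14.3%) it was 4. With a mean of at least 5 TPM it was 0 (6.82%), but Snai2, at a mean of 3.61 TPM, was not tested there. The gap between the median of junction genes and of all genes with Cd was -0.23, and -0.34 with no filter. In Cd+Se against Cd the count was 21, beside 13.6% of all genes higher. It was 2 with only those groups (0.399%) and 6 without Cd mice 5 and 6 (1.87%). In Cd+Se against Se and in Cd+Se against control 0 became 1 with quantile normalization, median centring and the length and GC correction. The share of all genes that was higher went from 0.544% to 0.731%, 0.739% and 0.770% in the first comparison. In the second it went from 0.314% to 0.527%, 0.552% and 0.580%. The interaction count was 3, beside 0.901% of all genes that passed with a positive value. It became 1 with no filter (0.0716%), 11 with quantile normalization (2.79%) and median centring (2.68%), and 12 with the protein-coding total (4.40%). With the correction it was 5 (1.91%), and without Cd mice 5 and 6 it was 0 (0.187%). The cause was not tested. With each mouse left out, falls with Cd ranged from 21 to 32, beside 17.0% to 27.3% of all genes. Rises ranged from 0 to 3, beside 3.73% to 6.45%. Cd+Se against Cd ranged from 9 to 23, beside 5.02% to 16.5% of all genes higher. Cd+Se against Se ranged from 0 to 1 (0.178% to 1.22% higher) and the interaction from 0 to 13 (0.00850% to 2.73% positive). No paired analysis was possible because the mouse numbers differ between groups. TPM keep no depth, so low genes such as Vcl and Snai2 carry an unknown counting error.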
